A study of Rattus norvegicus with 12 samples.

Results

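Nociceptors, the sensory neurons that detect damaging stimuli, were examined through 10 genes in single L5 dorsal root ganglia (DRG) of adult male Sprague Dawley rats. The genes were the rows of the gene-level array table whose probeset carried exactly 1 gene symbol, that symbol being Mrgprd, Mrgpre, Gfra2 or P2rx2 (4 nonpeptidergic genes), Calca, Tac1, Trpv1 or Trpa1 (4 peptidergic genes), or Scn10a or Scn11a (2 general nociceptor genes). All 10 were present, each with 1 probeset, among 7603 probesets with 1 gene symbol and 8260 in all. In the 6 LID rats (local inflammation of the DRG) a suspension of zymosan, a yeast cell wall preparation, had been placed beneath the intervertebral foramen over the ganglion (10 µl, 2 mg/ml). The carrier was Incomplete Freund's Adjuvant, an oil without mycobacteria. The 6 sham rats had the incision and exposure but no zymosan injection, so zymosan, its vehicle and the act of injection cannot be told apart. Ganglia were taken on post-operative day 3 and each array held the RNA of 1 ganglion. No transgene or deletion is named for either group.

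Nociceptors are commonly divided into a nonpeptidergic and a peptidergic class. Nonpeptidergic neurons bind the lectin IB4, depend in adult life on ligands of the GDNF family that signal through Ret, and project largely to the skin. Peptidergic neurons make calcitonin gene-related peptide (CGRP) and substance P, which they release in the spinal cord and also in the tissue they innervate, and they depend on nerve growth factor. The border between the classes is not sharp, and in the rat Trpv1 also occurs in IB4-binding neurons.

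Values are log2 values from which the gene's own median over the 12 arrays has been taken, so a value of 0 is the middle of the 12 ganglia and no level of expression is left. LID was compared with sham in limma, and genes were called where the adjusted p was under 0.05 over all 8260 probesets. By this rule 19.4% of all probesets were called, 11.7% as lower and 7.66% as higher in LID. The medians of the arrays over all probesets lay between -0.04 and 0.09, the highest being that of sham replicate 2, and no arrays were identical. Among 9 measured macrophage markers 8 rose, and their mean ran from 0.20 to 0.92 in LID and from -0.92 to -0.10 in sham. Of these, Lyz2 rose 2.82-fold and Itgam 2.44-fold, whereas Cx3cr1 was not called (log2 fold change 0.04, limma adjusted p = 0.916). The part of macrophages in the results was not tested. The RNA of a whole ganglion was measured, so fewer cells of a type and less RNA per cell cannot be told apart in any result below.

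All 4 nonpeptidergic genes fell in LID and none of the 4 peptidergic genes passed the test, each of them lying slightly higher on average in LID. The 2 sodium channel genes differed between the groups by at most 0.03 on the log2 scale. Of the 10 genes, 4 were thus called lower, against 11.7% of all probesets, and none higher, against 7.66%. At an unadjusted p under 0.05, 4 were lower and 3 higher, against 18.2% and 11.8% of all probesets (29.9% in either direction). The median change was -0.59 over the nonpeptidergic genes and 0.15 over the peptidergic genes, beside -0.02 over all probesets.

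**Figure D1:**
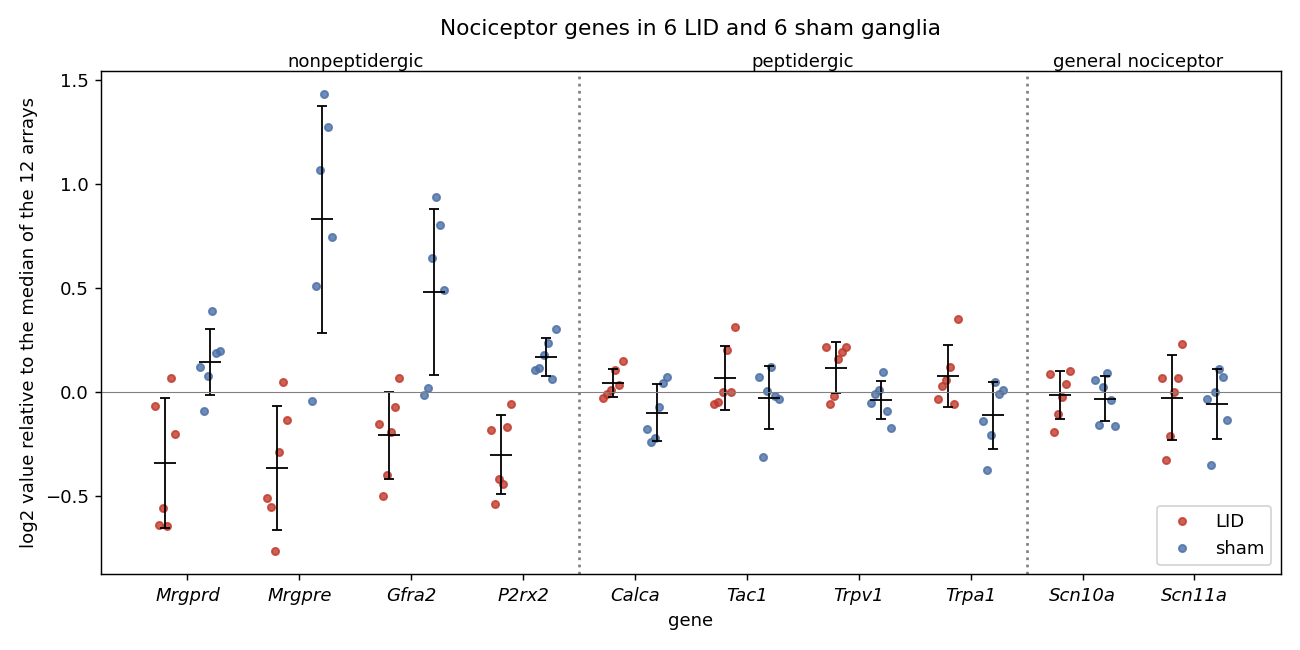
Log2 value, centred on the gene's median (vertical axis), of each of the 10 genes (horizontal axis) in the 6 LID ganglia (left, red points) and the 6 sham ganglia (right, blue points), with bars for mean and SD. The 4 nonpeptidergic genes lie lower in LID, with Mrgpre averaging -0.37 in LID and 0.83 in sham, and P2rx2 alone of the 10 has groups that do not overlap.

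Mrgpre, an orphan receptor of the Mas-related family found in sensory neurons, showed the largest change of the 10 genes. Its value ran from -0.77 over a median of -0.40 to 0.05 in LID ganglia, and from -0.05 over a median of 0.91 to 1.43 in sham ganglia. In 5 of 6 LID ganglia it lay below every sham ganglion. The groups touched only at their edges, where LID replicate 5, the highest of its group, lay above sham replicate 1, the lowest of its own. Mrgpre averaged -0.37 ± 0.30 in LID and 0.83 ± 0.55 in sham (SD, n = 6 each), a 2.30-fold decrease with a 95% confidence interval of 1.64 to 3.22 (log2 fold change -1.20, limma adjusted p = 0.00256). Only 5 of the 8260 probesets had a more negative log2 fold change.

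The sequence around an annotated start of Mrgpre is shown because its transcript fell furthest. That start lies inside the annotated span of the gene (208393141 to 208401252), not at its outer end. Windows of the peptidergic genes Calca, Tac1 and Trpv1, which were not called lower, are shown beside it. The starts used for Calca and Tac1 also lie inside their gene spans, though closer to the outer end than that of Mrgpre. The start of Trpv1 lies at the outer end of its span. RefSeq windows of 250 bases before and 50 after the start (build GRCr8) were at hand for 6 of the 10 genes, namely these 4, Scn10a and Scn11a. Capitals mark the letters TGTGGT, the core bound by RUNX factors, and TGACG, the shorter part of the cAMP response element, each on either strand (ACCACA and CGTCA), and the motifs share no position.
Mrgpre (chr1:208398981-208399280, minus strand): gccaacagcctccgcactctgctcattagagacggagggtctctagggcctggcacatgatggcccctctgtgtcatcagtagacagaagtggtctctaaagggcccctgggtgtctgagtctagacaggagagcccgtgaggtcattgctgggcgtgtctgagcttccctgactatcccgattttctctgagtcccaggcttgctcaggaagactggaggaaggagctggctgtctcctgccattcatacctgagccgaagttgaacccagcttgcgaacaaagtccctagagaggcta
Calca (chr1:178317480-178317779, minus strand): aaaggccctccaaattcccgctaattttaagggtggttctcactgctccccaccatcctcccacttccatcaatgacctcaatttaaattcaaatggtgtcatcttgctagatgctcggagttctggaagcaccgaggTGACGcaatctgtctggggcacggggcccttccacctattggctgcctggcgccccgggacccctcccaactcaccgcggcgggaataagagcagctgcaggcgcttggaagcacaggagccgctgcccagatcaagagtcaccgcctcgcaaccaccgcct
Tac1 (chr4:36645333-36645632, plus strand): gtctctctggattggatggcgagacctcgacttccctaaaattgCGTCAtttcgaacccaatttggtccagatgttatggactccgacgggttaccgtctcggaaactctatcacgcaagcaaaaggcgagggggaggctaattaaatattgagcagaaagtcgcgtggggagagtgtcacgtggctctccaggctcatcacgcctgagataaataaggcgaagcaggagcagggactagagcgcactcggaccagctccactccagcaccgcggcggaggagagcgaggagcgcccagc
Trpv1 (chr10:58349686-58349985, plus strand): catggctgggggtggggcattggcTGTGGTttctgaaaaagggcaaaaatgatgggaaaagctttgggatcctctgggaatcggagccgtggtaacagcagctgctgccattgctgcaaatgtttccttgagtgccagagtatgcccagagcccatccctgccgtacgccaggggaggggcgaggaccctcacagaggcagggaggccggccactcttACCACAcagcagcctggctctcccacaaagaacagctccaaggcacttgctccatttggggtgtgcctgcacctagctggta
The RUNX core occurred 2 times in the Trpv1 window and in none of the other 5, and it is present in 17.3% of the 33469 windows of the same length. TGACG occurred 1 time each in the windows of Calca, Tac1 and Scn10a, against 21.2% of all windows. Runx1 is known in the mouse as a factor that sets up the nonpeptidergic class. The Mrgpre window held neither set of letters, which says nothing about binding of either factor. The sequence before the outer end of the Mrgpre span was not examined.

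Gfra2, the receptor that binds neurturin and signals through Ret in nonpeptidergic neurons, was the next largest decrease. Values in LID ganglia ran from -0.50 over a median of -0.17 to 0.07, whereas those in sham ganglia ran from -0.02 over a median of 0.57 to 0.94. As for Mrgpre, 5 of 6 LID ganglia lay below every sham ganglion, and sham replicates 1 and 2 were the lowest of the sham group. The means were -0.21 ± 0.21 in LID and 0.48 ± 0.40 in sham (SD, n = 6 each), which is a 1.61-fold decrease (1.26 to 2.06, limma adjusted p = 0.0102). Mrgpre and Gfra2 were the only 2 of the 10 genes past both the test and a 1.5-fold decrease, a combination met by 0.847% of all probesets.

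Mrgprd, a receptor for beta-alanine that marks nonpeptidergic endings in the skin, fell less. It ran from -0.65 over a median of -0.38 to 0.07 in LID, and from -0.09 over a median of 0.15 to 0.39 in sham. The LID group was widely spread, with replicates 2, 3 and 4 between -0.65 and -0.56 and replicates 1, 5 and 6 between -0.20 and 0.07. Its means were -0.34 ± 0.31 in LID and 0.15 ± 0.16 in sham (SD, n = 6 each), or a 1.40-fold decrease (1.16 to 1.70, limma adjusted p = 0.0178).

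P2rx2, a subunit of ATP-gated cation channels, had the least spread of the 4. It ran from -0.54 over a median of -0.30 to -0.06 in LID ganglia and from 0.06 over a median of 0.15 to 0.30 in sham ganglia. Every LID ganglion lay below every sham ganglion. This was the only gene of the 10 without overlap, against 10.0% of all probesets in either direction and 6.42% with LID lower, so 1 of 10 is near the background. P2rx2 averaged -0.30 ± 0.19 in LID and 0.17 ± 0.09 in sham (SD, n = 6 each), a 1.38-fold decrease (1.23 to 1.56, limma adjusted p = 0.00158). The call of each of the 4 genes was kept with any 1 array left out, the highest adjusted p being 0.0437, for Mrgprd.

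Calca encodes alpha-CGRP, a vasodilator peptide that defines the peptidergic class. It ran from -0.03 over a median of 0.02 to 0.15 in LID and from -0.24 over a median of -0.13 to 0.07 in sham. All 6 LID ganglia lay above the sham median, but the groups overlapped, since sham replicates 5 and 6 lay within the range of LID. The fold change was 1.10 (1.00 to 1.21) with a limma adjusted p of 0.145.

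Tac1 encodes the precursor of substance P. It ran from -0.06 over a median of -0.00 to 0.31 in LID ganglia and from -0.32 over a median of -0.01 to 0.12 in sham ganglia. LID replicates 4 and 6 were above all sham ganglia and sham replicate 2 stood below all others. Its fold change of 1.07 (0.944 to 1.21) did not pass the test (limma adjusted p = 0.514).

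Of the channels of this class, Trpv1, the receptor for capsaicin and noxious heat, ran from -0.06 over a median of 0.17 to 0.21 in LID and from -0.18 over a median of -0.03 to 0.09 in sham. LID replicates 1, 4, 5 and 6 lay above every sham ganglion and replicates 2 and 3 within the sham range. Trpv1 had a fold change of 1.11 (1.01 to 1.22, limma adjusted p = 0.113). Trpa1, which responds to mustard oil and other irritants, ran from -0.06 over a median of 0.04 to 0.35 in LID and from -0.38 over a median of -0.08 to 0.05 in sham. LID replicates 3, 4 and 6 lay above every sham ganglion, and sham replicate 2 was the lowest. Its fold change was 1.14 (1.01 to 1.29) and the limma adjusted p 0.147.

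On the scale of the arrays these 4 intervals reach increases of 1.21-fold to 1.29-fold, and the interval of Tac1 also holds small decreases. When the mean of 11 general neuronal genes was subtracted from each array, the 3 genes Calca, Trpv1 and Trpa1 passed the limma test. The adjusted p were 0.0294, 0.0184 and 0.037, at log2 fold changes of 0.21, 0.22 and 0.25. That mean was lower in LID (-0.03) than in sham (0.04), so every log2 fold change rose by the same amount. Scn10a moved from 0.02 to 0.08. The share of all probesets called in that setting was not counted, so a rise of these 3 genes in particular was not tested. Tac1 did not pass in that setting or in any other that was run.

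Scn10a (Nav1.8) and Scn11a (Nav1.9) encode the tetrodotoxin-resistant sodium channels of nociceptors of both classes. Scn10a ran from -0.19 over a median of 0.01 to 0.10 in LID and from -0.16 over a median of -0.01 to 0.09 in sham. Scn11a ran from -0.33 over a median of 0.03 to 0.23 in LID and from -0.35 over a median of -0.02 to 0.11 in sham. For both channels the groups lay over each other almost entirely. The fold changes were 1.01 (0.918 to 1.11) for Scn10a and 1.02 (0.879 to 1.18) for Scn11a, with limma adjusted p of 0.921 and 0.903. Neither interval holds a 1.38-fold decrease, the smallest estimate among the nonpeptidergic genes, and the sign of both differences turned in several alternative settings.

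**Figure D2:**
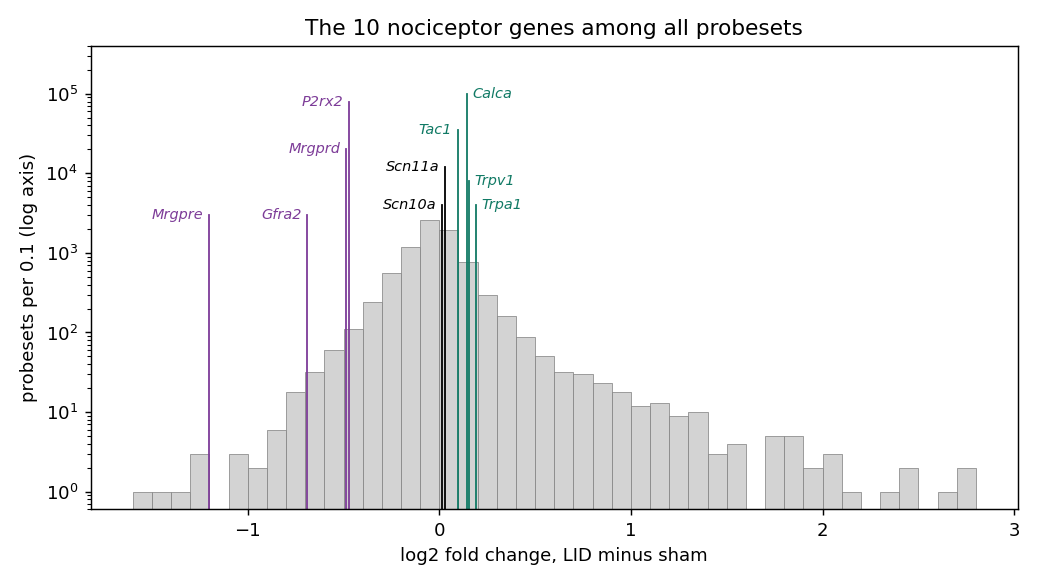
Number of probesets in each step of 0.1 of the log2 fold change, LID minus sham (grey bars, logarithmic vertical axis), over all 8260 probesets, with the 10 genes marked by vertical lines. The height of a line carries no value. The nonpeptidergic genes (purple) lie in the lower tail between -1.20 and -0.47, and the peptidergic (green) and sodium channel genes (black) between 0.02 and 0.19.

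Whether the classes differed in their change was examined inside each ganglion, where anything shared by both classes drops out. The mean of the 4 nonpeptidergic genes minus that of the 4 peptidergic genes was -0.38 ± 0.20 in LID (SD, n = 6 ganglia, range -0.55 to -0.07) and 0.48 ± 0.21 in sham (n = 6, range 0.12 to 0.70). The group difference was -0.86. No LID ganglion reached the lowest sham ganglion. This is given as a description, without a p value, because the genes were chosen with earlier results of these arrays known. The same limit holds for the p values of the gene pairs that follow, which are not independent evidence of a difference between the classes. The nonpeptidergic mean by itself ran from -0.56 to -0.03 in LID and from 0.04 to 0.75 in sham. The peptidergic mean ran from -0.02 to 0.26 in LID and from -0.24 to 0.05 in sham.

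**Figure D3:**
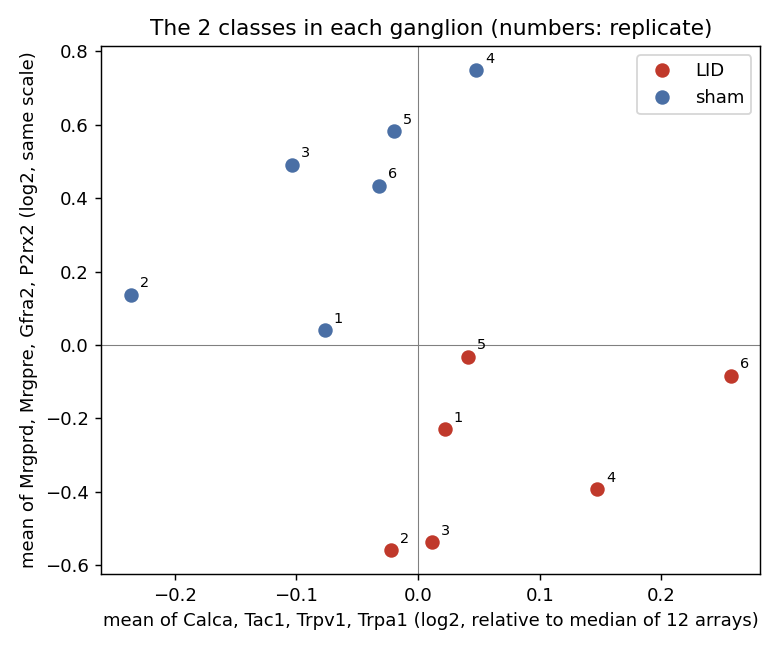
Mean of the 4 nonpeptidergic genes (vertical axis) against the mean of the 4 peptidergic genes (horizontal axis), both as median-centred log2 values, for each LID (red) and sham (blue) ganglion, numbered by replicate. The groups are apart on the vertical axis, between -0.56 and -0.03 in LID and between 0.04 and 0.75 in sham, and overlap on the horizontal axis.

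Each of the 16 pairs of 1 nonpeptidergic and 1 peptidergic gene was then tested by itself. For each pair the group difference of the within-array difference was set against every assignment of the 12 arrays to groups of 6 (exact permutation test, two-sided). The smallest difference was that of P2rx2 minus Tac1, which was -0.37 ± 0.20 in LID and 0.20 ± 0.16 in sham (SD, n = 6 each, difference -0.57, exact p = 0.00216). The largest was that of Mrgpre minus Trpa1, at -0.45 ± 0.31 in LID and 0.94 ± 0.49 in sham (difference -1.39, exact p = 0.00433). All 16 pairs passed at an adjusted p of 0.05, with exact p from 0.00216, the smallest the design can give, to 0.00433 (adjusted over the 16 pairs 0.00289 to 0.00433). In every pair all 6 LID ganglia lay below the sham median. The pairs share genes and arrays and so are not independent of each other.

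Within the nonpeptidergic class the decreases were unequal in size. The log2 fold changes of Mrgpre and P2rx2 differed by -0.73, and those of Mrgprd and P2rx2 by -0.02. Within the peptidergic class the widest difference, Tac1 minus Trpa1, was -0.09. These differences were not tested. The ganglia also held a partly shared order, since sham replicates 3, 4, 5 and 6 had the highest values of both Mrgpre and Gfra2, and LID replicates 2, 3 and 4 the lowest values of both Mrgprd and P2rx2.

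Of 10 further genes listed for the nonpeptidergic class 7 were measured, and 0 rose, 0 fell and 7 did not pass the limma test, with a median log2 fold change of -0.02. None of the 7 had an unadjusted p under 0.05. P2rx3, whose product joins with that of P2rx2 in a mixed ATP-gated channel, had a log2 fold change of -0.02 (standard error 0.08). Ret, the kinase through which Gfra2 signals, had -0.02 (standard error 0.05), and the GDNF receptor Gfra1 had 0.06 (standard error 0.04). Lpar3, a lysophosphatidic acid receptor, had -0.28 with a wide error (standard error 0.20).

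The values of both partner pairs inside each ganglion are given as a description, with no test, because P2rx3 and Ret were picked after their values were seen. P2rx2 minus P2rx3 was -0.26 ± 0.08 in LID and 0.19 ± 0.10 in sham (SD, n = 6 each, difference -0.45), without overlap of the groups. Gfra2 minus Ret was -0.19 ± 0.12 in LID and 0.48 ± 0.37 in sham (difference -0.67), with overlap.

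Of 9 further receptors of the Mas-related family 0 rose and 0 fell in the limma test, with a median log2 fold change of -0.05. At an unadjusted p under 0.05 there was 1, Mas1l, at -0.25. Mrgprb4, known in the mouse from neurons that respond to stroking, had a log2 fold change of -0.40 with a standard error of 0.25.

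Among 8 further peptidergic genes 2 fell and none rose. For this list and those below, the shares over all probesets were 11.7% called lower and 7.66% called higher. No list was tested against these shares. Prokr2, a receptor for prokineticins, fell by 0.38 (log2, standard error 0.09, limma adjusted p = 0.0105), and Oprm1, the mu opioid receptor, fell by 0.32 (standard error 0.09, limma adjusted p = 0.0264). The call of Oprm1 was lost without LID replicate 3 or without sham replicate 3, 4 or 5, the adjusted p reaching 0.063. For the peptide genes Calcb, Bdnf and Gal the log2 fold change was 0.12, 0.16 and 0.12 without a call, although Bdnf passed without sham replicate 1 (adjusted p = 0.0479). The median of the 8 was 0.03. Their mean was -0.02 in LID and 0.01 in sham, and that of the 7 further nonpeptidergic genes was -0.04 and 0.0002. The difference between the classes described above was thus that of the chosen genes and was not seen in these further genes.

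**Figure D4:**
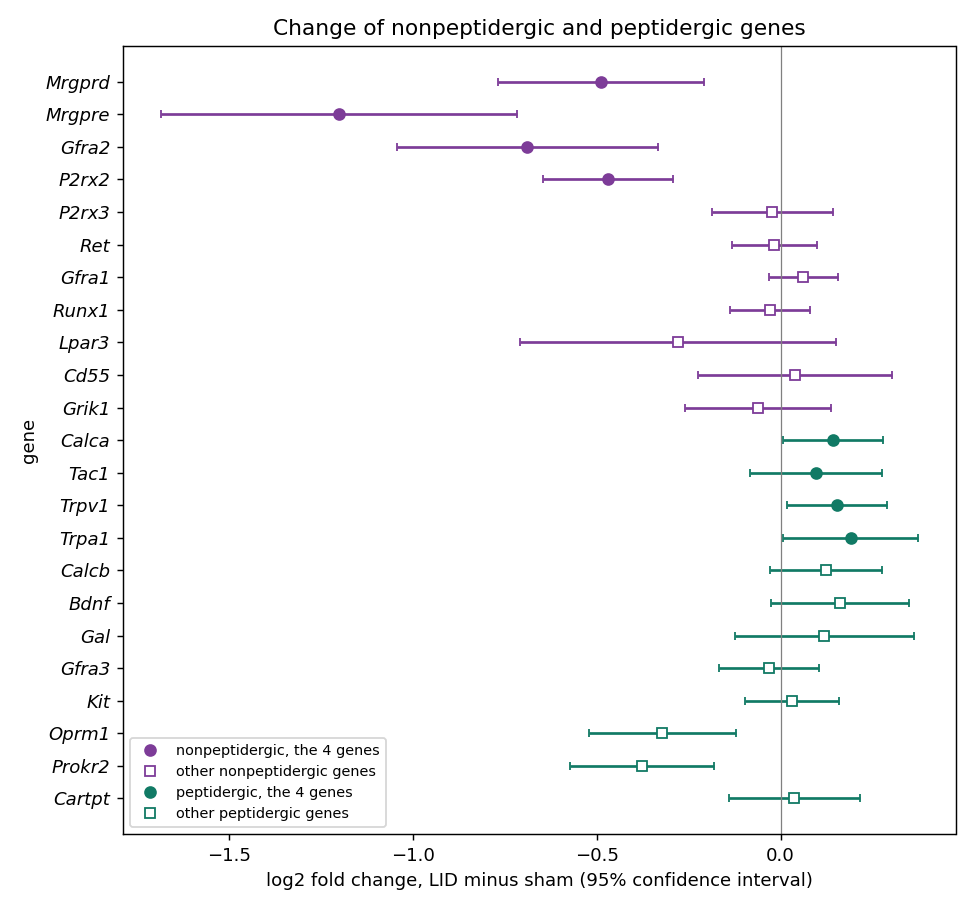
Log2 fold change, LID minus sham, with 95% confidence interval (horizontal axis) for the 4 nonpeptidergic and 4 peptidergic genes (filled circles) and for the further genes of each class that were measured (open squares). The 4 nonpeptidergic genes lie between -1.20 and -0.47, whereas the 7 further nonpeptidergic genes lie between -0.28 (Lpar3, with a wide interval) and 0.06 (Gfra1).

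Of 7 measured genes that store and mature peptides 3 fell and none rose. Sizes of decreases here and below are on the log2 scale. They were Chga and Chgb, chromogranins of the dense-core granule, which fell by 0.39 (standard error 0.06) and 0.40 (standard error 0.09), and Scg5, a chaperone of the prohormone convertase Pcsk2, which fell by 0.25 (standard error 0.06). Neither Pcsk2 itself, at -0.09, nor the amidating enzyme Pam, at 0.05 (log2 fold changes), passed.

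Ligands, receptors and enzymes that work with the 10 genes gave 1 increase and 3 decreases among 14 measured. Crcp, a component named for the CGRP receptor that also serves RNA polymerase III, fell by 0.54 (standard error 0.07, limma adjusted p = 0.000293), and the low-affinity neurotrophin receptor Ngfr fell by 0.18 (standard error 0.04). Entpd3, an enzyme that breaks down extracellular ATP and is also known from nonpeptidergic neurons in the mouse, fell by 0.30 (standard error 0.06). Entpd2, an ATP-degrading enzyme known from satellite glia, rose 1.26-fold (1.09 to 1.46), and this call was lost in 7 of the 12 fits that left out 1 array, the adjusted p reaching 0.0706. The CGRP receptor chains Calcrl and Ramp1 had log2 fold changes of 0.18 and 0.38, the substance P receptor Tacr1 had 0.31 and the neurturin gene Nrtn had 0.13, and none of them passed. Tacr1 was near the threshold (adjusted p = 0.0528) and passed without LID replicate 3 or without sham replicate 1 or 2, where the lowest adjusted p was 0.0264.

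Of 7 other sodium channel genes and partners, 1 rose and 2 fell. The subunit Scn2b rose 1.20-fold (1.10 to 1.30), and Fgf14 and Fgf12, intracellular partners of sodium channels, fell by 0.40 (standard error 0.06) and 0.37 (standard error 0.10). Of 11 other sensory transducers 2 fell and none rose. Kcnk18, the potassium channel TRESK, fell by 0.40 (standard error 0.09), and the acid-sensing channel Asic2 fell by 0.21 (standard error 0.07), a call lost in 8 of the 12 fits that left out 1 array (adjusted p up to 0.0962). The cold receptor Trpm8 had a log2 fold change of -0.03.

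Of 11 measured general neuronal genes 1 rose and 2 fell, with a median log2 fold change of 0.02, and their mean ran from -0.11 to 0.05 in LID and from -0.03 to 0.09 in sham. Elavl3, an RNA-binding protein of neurons, fell by 0.45 (standard error 0.08). Map2, a microtubule protein of dendrites and cell bodies, fell by 0.29, a call that was lost in 5 of the 12 fits with 1 array left out (adjusted p up to 0.0566). Eno2, the neuronal enolase, rose 1.09-fold, and this call was lost in 10 of the 12 (adjusted p up to 0.102). With the neuronal mean subtracted from each array, or with the mean of Scn10a and Scn11a subtracted, the 4 nonpeptidergic genes were each still called lower.

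The genes whose profile was most like the mean of the 4 nonpeptidergic genes over the 12 arrays were Kcnip3 (Pearson r = 0.983), Bcl2 (0.98), Ppp1r1a (0.977), C3h9orf78 (0.976) and Rtn1 (0.969). When each group's mean was subtracted, 4 of these 5 were again among the leading 5, which were Kcnip3 (0.946), Bcl2 (0.941), Ppp1r1a (0.921), Wipf3 (0.914) and C3h9orf78 (0.914). All 6 genes fell, with log2 fold changes from -1.44 for Bcl2 to -0.29 for Rtn1. For the 5 picked over the 12 arrays the fall follows from the choice and is no separate result. The mean they were matched to lay lower in every LID ganglion than in every sham ganglion. Kcnip3 is a calcium-binding partner of A-type potassium channels, Bcl2 restrains apoptosis and Ppp1r1a inhibits protein phosphatase 1. The genes most like the peptidergic mean were Ywhaz (0.953), Rufy3 (0.952), Pdia3 (0.92), Parg (0.915) and Canx (0.914), of which none passed the limma test. With group means subtracted the leading genes were Orc4 (0.951), Rufy3 (0.946), Cd55 (0.94), Ube2v2 (0.938) and Psmc2 (0.933). Cd55 is also among the further genes listed for the nonpeptidergic class. The points are arrays that share 1 normalization, and the genes were picked from 7593 as the most similar.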

How the data were processed

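Gene expression was measured on Affymetrix Rat Exon ST 1.0 arrays, 1 per ganglion. Core probesets were summarized by the authors with RMA16, quantile normalized and set relative to the median of all samples in GeneSpring 11.5. The deposited values are thus log2 values centred on each probeset's median, as the table shows for all 8260 rows. The log2 scale is taken from the methods. The centred values hold no signal over background, so no filter on expression was applied, and precision is limited by the 12 arrays. The paper did apply an expression cutoff, so the shares over all 8260 probesets may include probesets that it left out. Labels name the rn4 build. RNA was isolated with 1 of 2 kits, and which ganglion had which is not given in the sources used here, so its part was not tested. Symbols came from the platform annotation, updated through RefSeq GRCr8 where found (7584 of 7603), and a probeset that names both Trpv1 and Trpv4 was left out.

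LID was compared with sham in limma 3.58.1 under R 4.3.3 (linear model, empirical Bayes, two-sided, Benjamini-Hochberg adjustment over all probesets). Pairs were tested in Python 3.11.15 with numpy 2.4.6 and pandas 2.3.3. The limma step was tested on simulated data. The genes and lists were chosen with earlier results of these data known. Named were the 10 genes, up to 5 called genes per list, and the 5 most similar probesets. Others, among them P2rx3, Ret, Gfra1, Lpar3, Mrgprb4, Calcb, Bdnf, Gal, Pcsk2, Pam, Calcrl, Ramp1, Tacr1, Nrtn and Trpm8, were named after their values were seen. Alternatives were other normalizations, variance models, array weights, thresholds, a replicate block and arrays or genes left out. The 2 arrays with the widest spread were left out together as an alternative chosen after seeing the data.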

Additional observations from a re-analysis of the deposited data

Results flagged for a closer look

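Tac1 in sham replicate 2 was -0.32, far below the other 5 sham ganglia, with a gap to the nearest of 0.642 of the range of the group. This is past the 95% critical value of Dixon's test for 6 samples. Such a gap was looked for in 20 sets of 6 values, and chance alone gives it in about 1 of 20. Without that array the log2 fold change of Tac1 was 0.04 (limma adjusted p = 0.754), against 0.10 with it. Sham replicate 2 also had the lowest Mrgprd, Calca, Trpa1 and Scn11a of its group.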

How the results depend on the processing

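The number of genes called lower stayed at 4 with each array left out in turn (4 to 4) and the number called higher at 0 (0 to 0). All 16 pairs passed in each of those fits, and the class difference ran from -0.93 to -0.81. The class difference was -0.69 without Mrgpre, the closest to 0, and -0.96 after a further quantile normalization, the farthest. All of these settings used only the genes chosen for the classes, so they do not speak for other genes of either class. At an adjusted p under 0.01 the genes called lower were 2, and with a 1.5-fold minimum also 2, as these rules are stricter. The genes called higher were 3 after subtraction of the general neuronal mean and 3 at an unadjusted p under 0.05. The subtraction moved every gene upward by the same amount, and the share of all probesets called after it was not counted. Scn10a and Scn11a, never called, turned in sign. With 1 array left out Scn10a ran from -0.0105 to 0.0512, turning without LID replicate 1 or 6 or sham replicate 2 or 6, and Scn11a from -0.0301 to 0.0891, turning without LID replicate 6 or sham replicate 2. With array weights they were -0.0018 and -0.0049, and Scn10a was -0.0067 after subtraction of the channel mean, which holds Scn10a itself. The cause was not tested. Same-numbered arrays of the groups did not deviate together throughout (correlations -0.15 to 0.40 over all probesets), and 1 of 6 LID arrays was most like its own number. The labels name no pairing of the ganglia, and they do not say whether a replicate number marks a shared batch. With a replicate block 4 genes were lower, 0 higher and 16 pairs passed. The blocked pair test has only 64 sign flips, so its smallest possible exact p is 0.03125, close to the threshold. Leaving out sham replicate 2 and LID replicate 2 together, an alternative chosen after seeing the data, also gave 4, 0 and 16.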

Other observations

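Among genes of other neurons, 2 of 9 measured for large myelinated neurons fell and none rose. Beside this list and those below, 11.7% of all probesets were called lower and 7.66% higher, and no list was tested against these shares. Ntrk3, the receptor for neurotrophin-3, fell by 0.33 (log2, standard error 0.10), and Ntrk2, the receptor for BDNF, by 0.20 (standard error 0.05). The limma call of Ntrk3 was lost in 10 of the 12 fits with 1 array left out (adjusted p up to 0.0812) and that of Ntrk2 without sham replicate 3 (adjusted p = 0.0505). The neurofilament genes Nefh, Nefm and Nefl, chosen with their values known, were not called (log2 fold changes -0.04, -0.01 and -0.01). Of 4 measured transcription factors of sensory neuron identity 1 fell, Runx3, by 0.31 (standard error 0.08). Of 5 genes of itch neurons 1 rose, Osmr, the oncostatin M receptor, at 1.49-fold (1.23 to 1.80), a gene that is also expressed outside neurons. The median log2 fold change of the list was -0.18. The others, named with their values known, were Sst (-0.43), Htr1f (-0.34), Nppb (-0.18) and Cysltr2 (0.28), and none was called. Htr1f passed without sham replicate 6, and Cysltr2 passed without LID replicate 2 or sham replicate 1.

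Of 10 genes known to rise in injured sensory neurons 4 rose and none fell. Npy rose 2.25-fold (1.72 to 2.95), Vgf 1.76-fold (1.46 to 2.11) and the transcription factor Atf3 1.75-fold (1.30 to 2.36). The mean of the 10 ran from 0.11 to 0.20 in LID and from -0.35 to -0.13 in sham. Jun rose 1.25-fold, a call that was lost in 6 of the 12 fits with 1 array left out (adjusted p up to 0.0768).

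Of 9 satellite glial genes 1 rose and 3 fell, with Gfap 2.49-fold higher and Gjb6, Slc1a3 and Kcnj10 lower by 0.98, 0.48 and 0.42 (log2 fold changes -0.98, -0.48 and -0.42). Of 8 Schwann cell genes only Gldn passed, at 1.44-fold, and none of 6 T cell genes or 3 genes of vessels and connective tissue did. Of these, Cd4 (limma adjusted p = 0.0576) and Cd5 (limma adjusted p = 0.0554) were near the threshold. With 1 array left out, Cd4 passed in 4 fits, Cd5 in 2 and Col3a1 in 1. The part of these cell types in the decreases of the nonpeptidergic genes was not tested.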
